A study of Mus musculus with 8 samples.

Results

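The 31 genes described here are those whose transcripts are known to rise when astrocytes become reactive: 11 genes of a pan-reactive panel, 10 of a panel raised by neuroinflammation (often called A1) and 10 of a panel raised by ischaemia (A2). They were taken by symbol, with no threshold on a measured value, but the list was chosen with earlier results of these data known. All 31 had a row among the 24060 gene symbols of the deposited tables. Of the 31, 28 passed the filter on low values, out of 15606 genes in all. Steap4, Tgm1 and Slc10a6 did not pass it.

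The libraries come from the cortex of 4 young adult mice of about postnatal day 80, described as male and female without saying which animal was which. All animals were Aldh1l1-creERT2 hemi and Ribotag het. Aldh1l1-creERT2 is a Cre recombinase that tamoxifen activates, driven by regulatory sequence of the astrocyte gene Aldh1l1, and Ribotag is an allele of the ribosomal protein gene Rpl22 that gains a hemagglutinin (HA) tag in cells where Cre has acted. Each animal, numbered 579, 580, 581 or 595, gave a library of the cleared lysate (input) and a library of the RNA that came down with tagged ribosomes (HA IP). There are thus 4 libraries in each of the 2 groups, and the groups differ in the RNA fraction, not in the animal. No injury, infection or other treatment that induces reactivity is named in the labels, so the values are levels of the reactive genes in cortex for which no such treatment is recorded.

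Astrocytes respond to injury, infection and disease by changing their shape and their transcripts, a state called reactivity. Cytokines of the interleukin-6 family act through the shared receptor gp130 and the transcription factor STAT3, while tumour necrosis factor and interleukin-1 act through NF-kappa-B, and interferons through receptors of their own. The products of the genes induced range from secreted proteins that act on the matrix and on immune cells to receptors, enzymes and proteins of antigen presentation.

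Aldh1l1 checked the fraction. It stood at 406, 433, 415 and 370 FPKM (fragment numbers divided by gene length and by library total) in the HA IP libraries of animals 579, 580, 581 and 595, and at 20.7 to 22.97 FPKM in the inputs. All 12 tested astrocyte markers rose, and the median of their log2 fold changes was 4.11. All 14 microglia and macrophage markers, all 12 neuronal, all 8 oligodendrocyte and all 6 oligodendrocyte precursor markers fell, as did 11 of 12 endothelial markers, but none of these lists was at 0 in HA IP. Of 10 mural markers 1 rose and 4 fell, and of 11 fibroblast and meningeal markers 2 rose and 4 fell. Their summed levels in HA IP were 28.2 to 36.3 FPKM for microglia and macrophages, 4.11 to 5.50 FPKM for endothelium and 98.4 to 125.5 FPKM for neurons, against 200.5 to 216.7, 26.2 to 37.5 and 2694 to 2879 FPKM in input. Of 6 tested ependymal and choroid plexus markers 3 rose and 2 fell, with a median log2 fold change of 0.76. All 3 tested blood cell markers rose, with a median of 1.91. The library totals were 33834388 to 53625125 fragments. The HA IP library of animal 581 stood apart from the other 3 in many reactive genes, so calls that change without it are given both ways. In such bulk material, fewer cells of a type and less RNA per cell cannot be told apart.

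The HA IP against input comparison asked which of the reactive genes stood higher or lower in RNA from tagged ribosomes than in the cleared lysate of cortex. Values below are FPKM on the deposited scale, in the order of animals 579, 580, 581 and 595, and log2 fold changes are those of HA IP over input from limma, fitted on all genes, after TMM scaling (a correction for differences in RNA composition). Where FPKM of the groups are said to overlap or not, this is on the deposited scale unless TMM scaling is named. After TMM scaling HA IP stands higher against input, so overlaps can appear or vanish. Adjusted p-values are Benjamini-Hochberg values over all 15606 genes, and a gene is said to rise or fall where its adjusted p is at most 0.05. Of the 28 tested members, 10 rose, 3 fell and 15 passed in neither direction, and the 28 fold changes had a median of 0.02 (log2). With the animal as a block, which fits the pairing of the libraries, 10 rose and 5 fell, Lcn2 and Tm4sf1 being added. Over all tested genes 42.1% rose and 41.2% fell (median 0.01), so 10 of 28 and 3 of 28 members were both smaller shares. Among all tested genes 86.6% had the same sign in all 4 animals, and 14 of the 28 members did, among them all 13 that rose or fell.

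The panels differed in these counts, which were not tested against each other. In the pan-reactive panel 5 of 10 tested genes rose, none fell and the median log2 fold change was 0.59. In the neuroinflammation panel 4 of 10 rose, 2 fell and the median was 0.35. In the ischaemia panel 1 of 8 rose, 1 fell and the median was -0.28. The scale bears on these counts. HA IP libraries had lower TMM factors than inputs, and on the deposited FPKM without TMM scaling the median of all tested genes was -0.75. There 7 members rose and 8 fell, where 23.3% of all tested genes rose and 61.6% fell. Cxcl10, Osmr and Gbp2 no longer passed on that scale, and Hspb1, Cp, Iigp1, Tm4sf1 and B3gnt5 fell.

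**Figure D1:**
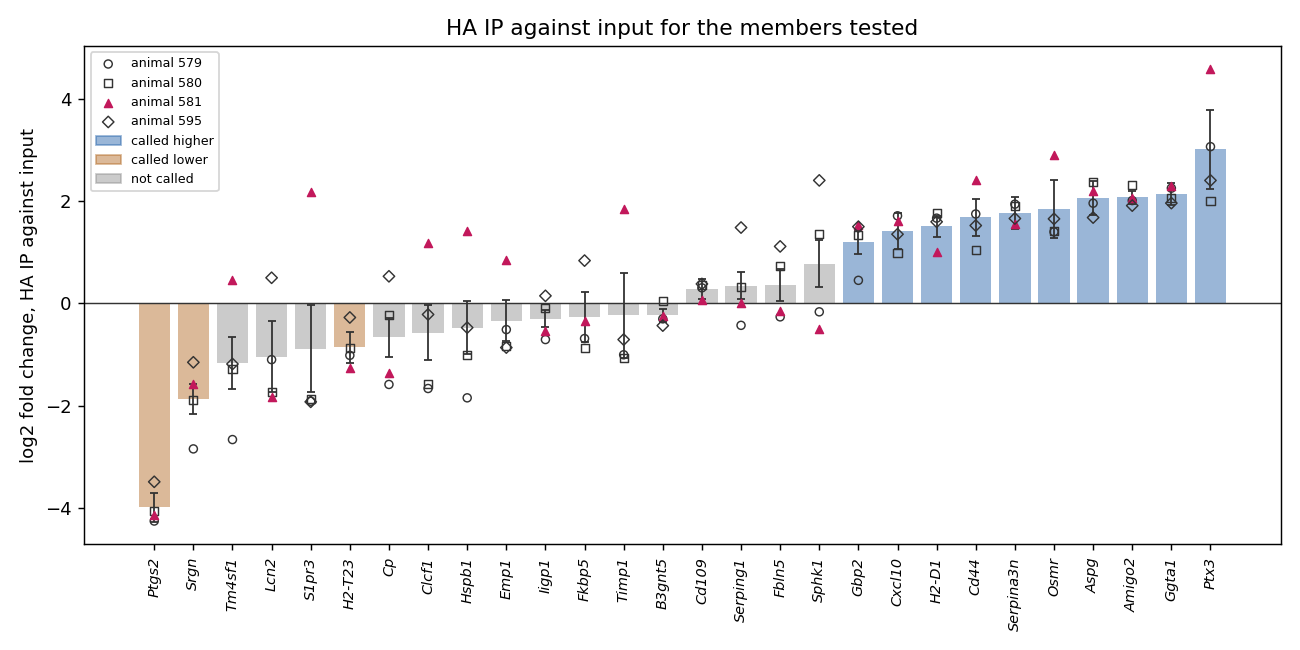
Bars show the log2 fold change of HA IP over input (vertical axis; limma after TMM scaling) for each of the 28 tested reactive genes, with error bars of 1 SE, and symbols show the log2 ratio within each animal. Blue bars rose, tan bars fell and grey bars did not pass. The 10 genes that rose and 3 that fell have all 4 animals on the same side of 0, while S1pr3, Timp1, Hspb1, Clcf1, Emp1 and Tm4sf1 have animal 581 alone above 0.

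Among the secreted proteins, Serpina3n is a serine protease inhibitor and a common marker of reactive astrocytes. It stood at 75.8, 40.3, 71.1 and 37.6 FPKM in HA IP and at 36.2, 19.9, 42.7 and 20.3 FPKM in input. Animals 579 and 581 were high and animals 580 and 595 low in both fractions. The lowest HA IP values lay below the highest input value on the deposited scale but not after TMM scaling. The log2 fold change was 1.76 (SE 0.31, adjusted p = 0.000378), with ratios within animals of 1.94, 1.90, 1.55 and 1.66. The gene belongs to a cluster of close paralogs that could share reads, so its level is uncertain.

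Ptx3, a secreted pentraxin that binds microbes and complement, had 0.742, 0.505, 7.73 and 0.539 FPKM in HA IP and 0.0439, 0.132, 0.437 and 0.0680 FPKM in input. Every HA IP value lay above every input value, and animal 581 was the highest in both fractions. Its log2 fold change of 3.02 (SE 0.77, adjusted p = 0.00435) was the largest rise among the members, and it was 2.16 without the HA IP library of animal 581. The input values of Ptx3 rest on 3, 9, 31 and 7 fragments, so the size of its rise is uncertain. It was 1.34 with a pseudocount of 1 FPKM and 3.93 with 0.01 FPKM. Cxcl10, a chemokine that attracts T cells and is induced by interferons, had 0.579, 0.761, 0.589 and 0.297 FPKM in HA IP against 0.231, 0.644, 0.247 and 0.119 FPKM in input. It was higher in HA IP in every animal although the groups overlap, and its log2 fold change was 1.42 (SE 0.36, adjusted p = 0.00391). These values rest on 7 to 37 fragments a library, and on the deposited scale the log2 fold change was 0.77 (adjusted p = 0.0716).

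Srgn, a proteoglycan of secretory granules that is abundant in blood-derived cells, was the secreted member that fell. It had 0.304, 0.458, 0.714 and 1.11 FPKM in HA IP and 4.84, 3.50, 4.02 and 4.37 FPKM in input, with no overlap. Its log2 fold change was -1.86 (SE 0.30, adjusted p = 0.000192). The microglia and macrophage markers had a median log2 fold change of -2.90, and their part in this value was not tested. Serping1, the inhibitor of complement C1, had 1.91, 2.68, 1.94 and 4.55 FPKM in HA IP and 2.71 to 4.76 FPKM in input. It did not pass (0.35, SE 0.27, adjusted p = 0.247). Cp, a copper-carrying ferroxidase, Fbln5, an elastic fibre protein, Clcf1, a cytokine of the interleukin-6 family, Timp1, an inhibitor of matrix metalloproteases, and Lcn2, an iron-carrier-binding lipocalin, did not pass either.

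Receptors and other membrane proteins included 3 of 7 tested genes that rose and none that fell. Amigo2, a neuronal and glial adhesion protein, had 2.12, 2.48, 2.08 and 2.28 FPKM in HA IP and 0.866, 0.823, 0.774 and 0.941 FPKM in input. Its groups did not overlap and its highest HA IP value was 1.19-fold its lowest, the smallest such ratio among the tested members. The log2 fold change was 2.07 (SE 0.12, adjusted p = 1.11e-07). Osmr, the receptor subunit for oncostatin M that signals with gp130, had 1.06, 1.02, 6.79 and 1.03 FPKM in HA IP and 0.653, 0.621, 1.48 and 0.472 FPKM in input. Animal 581 stood far above the others in HA IP and was also the highest input. Its input exceeded the other 3 HA IP values on the deposited scale but not after TMM scaling. HA IP over input gave a log2 fold change of 1.85 (SE 0.58, adjusted p = 0.0129) and 1.21 without the HA IP library of animal 581. On the deposited scale it was 1.09 (adjusted p = 0.107).

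Cd44, a receptor for hyaluronan, had 0.582, 0.287, 1.35 and 0.418 FPKM in HA IP and 0.223, 0.188, 0.336 and 0.164 FPKM in input. It was higher in HA IP in every animal. On the deposited scale, but not after TMM scaling, the HA IP value of animal 580 lay below the input of animal 581. The log2 fold change was 1.68 (SE 0.36, adjusted p = 0.00155). Cd109, a membrane-anchored protein that binds TGF-beta, had 0.108 to 0.187 FPKM in HA IP and 0.126 to 0.311 FPKM in input and did not pass (0.28, SE 0.19, adjusted p = 0.196). The remaining tested membrane genes, S1pr3, Emp1 and Tm4sf1, were set apart by animal 581 and are described with it.

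Among enzymes and chaperones, Ggta1 and Aspg rose. Ggta1, the alpha-1,3-galactosyltransferase that builds a sugar epitope of most mammals, had 1.39, 1.55, 2.25 and 1.14 FPKM in HA IP and 0.430, 0.591, 0.699 and 0.403 FPKM in input. Its groups did not overlap, and the log2 fold change was 2.14 (SE 0.22, adjusted p = 7.85e-06). Aspg, an asparaginase with lysophospholipase activity, had 3.32, 2.78, 6.23 and 2.30 FPKM in HA IP and 1.47, 0.883, 2.30 and 1.14 FPKM in input. Animal 581 was the highest in both fractions, and its input was level with the lowest HA IP value on the deposited scale but not after TMM scaling. The log2 fold change of Aspg was 2.05 (SE 0.33, adjusted p = 0.000216).

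Ptgs2, the inducible cyclooxygenase of prostaglandin synthesis, fell the most. It had 0.0794, 0.142, 0.264 and 0.193 FPKM in HA IP, from 15 to 49 fragments, and 5.21, 6.50, 10.4 and 5.04 FPKM in input. The groups did not overlap and both were highest in animal 581. The log2 fold change was -3.98 (SE 0.28, adjusted p = 4.00e-07). The transcript is known in excitatory neurons of cortex, and the 12 neuronal markers had a median of -3.88. Their part in this value was not tested. Sphk1, which makes sphingosine 1-phosphate, had 0.341, 0.988, 0.406 and 2.01 FPKM in HA IP and 0.718, 0.631, 1.07 and 0.543 FPKM in input. It was higher in HA IP in animals 580 and 595 and lower in the other two, and did not pass (0.77, SE 0.46, adjusted p = 0.141).

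Of the 4 genes of antigen presentation and interferon response, H2-D1 and Gbp2 rose and H2-T23 fell. H2-D1, a classical MHC class I heavy chain, had 26.6, 28.4, 14.1 and 22.8 FPKM in HA IP and 15.3, 15.4, 12.3 and 12.9 FPKM in input. Here animal 581 was the lowest HA IP library, which is the opposite order to Osmr or Ptx3. It overlapped the inputs on the deposited scale but not after TMM scaling. HA IP over input gave a log2 fold change of 1.51 (SE 0.21, adjusted p = 7.17e-05). Gbp2, a GTPase induced by interferon gamma, had 1.003, 1.66, 1.89 and 1.19 FPKM in HA IP and 1.31, 1.14, 1.07 and 0.633 FPKM in input. These deposited values overlap, and the log2 fold change was 1.20 (SE 0.24, adjusted p = 0.00102) after TMM scaling and 0.43 (adjusted p = 0.131) without it.

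H2-T23, which encodes the non-classical molecule Qa-1, had 1.27, 1.88, 2.77 and 2.46 FPKM in HA IP and 4.85, 6.45, 11.9 and 5.12 FPKM in input. These deposited values did not overlap, but after TMM scaling the highest HA IP value lay slightly above the lowest input value. Its log2 fold change was -0.85 (SE 0.30, adjusted p = 0.0231). In the limma fit without a block the call was lost without animal 580 (adjusted p = 0.0789) and without the HA IP library of animal 579 (adjusted p = 0.0690). With all libraries and the animal as a block the SE was 0.16 and the adjusted p 0.00142. Iigp1, another interferon-induced GTPase, had 0.0398 to 0.0856 FPKM in HA IP and 0.108 to 0.204 FPKM in input and did not pass (-0.30, SE 0.17, adjusted p = 0.126). Its HA IP values lay below the pseudocount of 0.1 FPKM, and with 0.01 FPKM the log2 fold change was -0.55 (adjusted p = 0.149 in limma). MHC class I genes and both GTPase families have near-identical copies whose reads could be split in the authors' counting, so these levels are uncertain.

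The HA IP library of animal 581 carried 9 of the 28 tested members at least 2-fold above every other HA IP library, on TMM-scaled FPKM with a pseudocount of 0.1, a share of 32.1%. The share of all tested genes in that library was 0.948%. The same count was 1 member in the HA IP library of animal 579 (0.115% of all genes), 0 in that of animal 580 (0.199%) and 1 in that of animal 595 (1.36%). The 9 genes were S1pr3, Timp1, Hspb1, Cd44, Osmr, Clcf1, Ptx3, Emp1 and Tm4sf1. They made up 5 of the 10 tested genes of the pan-reactive panel, 4 of the 8 of the ischaemia panel and none of the 10 of the neuroinflammation panel. For 15 of the 28 members (53.6%) this library held the highest HA IP value, against 28.8% of all tested genes.

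**Figure D2:**
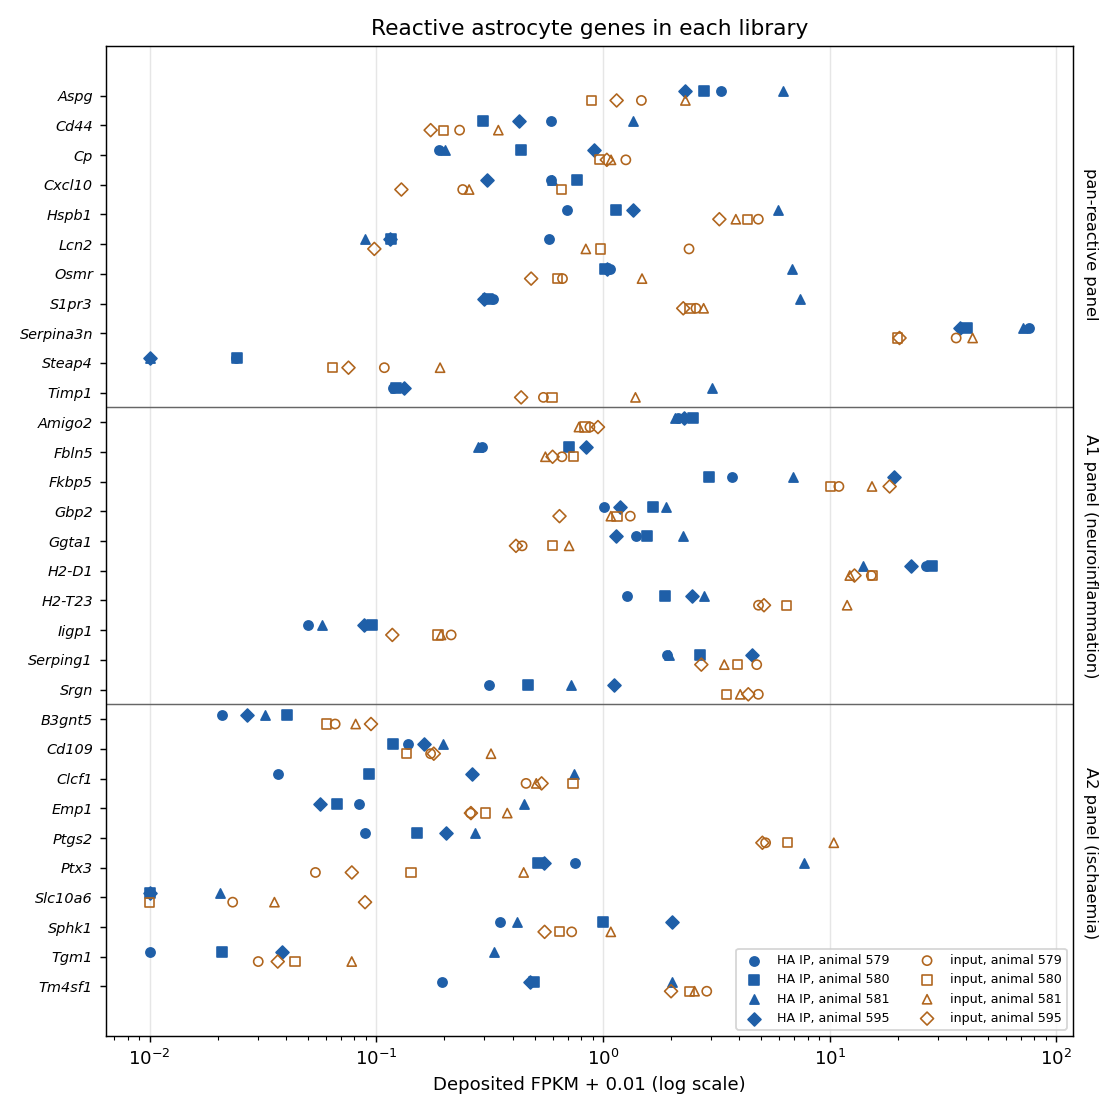
FPKM of each of the 31 reactive genes in the 8 libraries (deposited FPKM + 0.01 on a log axis), grouped by panel, with HA IP and input libraries of the 4 animals marked by colour and symbol. The HA IP point of animal 581 stands clear of the other 3 for S1pr3, Timp1, Osmr, Ptx3 and Tgm1, while Amigo2 and Serpina3n show no such point.

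S1pr3, a receptor for sphingosine 1-phosphate at chr13:51408618-51422797 (GRCm38.p6), had the widest gap of the 9 to the next HA IP library, 4.21 log2 units on TMM-scaled FPKM + 0.1. It had 0.318, 0.302, 7.42 and 0.290 FPKM in HA IP and 2.56, 2.41, 2.77 and 2.25 FPKM in input. In animal 581 HA IP exceeded input, and in the other 3 animals it lay below input. With all libraries the log2 fold change was -0.88 (SE 0.85, adjusted p = 0.353), and without that HA IP library it was -1.95 (adjusted p = 7.57e-07). The value in animal 581 rests on 1495 fragments, against 44 to 65 in the other HA IP libraries.

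Timp1, at chrX:20870166-20874737, had 0.109, 0.112, 3.02 and 0.123 FPKM in HA IP and 0.536, 0.586, 1.38 and 0.426 FPKM in input. Animal 581 was the highest in both fractions, by 3.97 log2 units over the next library in HA IP and 1.07 in input. The log2 fold change was -0.23 (SE 0.84, adjusted p = 0.803), and -1.24 (adjusted p = 0.00462) without the HA IP library of animal 581. Hspb1, the small heat shock protein 27 that chaperones actin and other proteins, had 0.681, 1.13, 5.94 and 1.35 FPKM in HA IP and 4.84, 4.33, 3.85 and 3.25 FPKM in input. Unlike Timp1 it was not high in the input of animal 581. It changed by -0.48 (SE 0.52, adjusted p = 0.406) with all libraries and by -1.08 (adjusted p = 0.000981) without that HA IP library.

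Emp1, a membrane protein of the claudin-like PMP22 family, had 0.0739, 0.0571, 0.440 and 0.0463 FPKM in HA IP and 0.250, 0.293, 0.368 and 0.252 FPKM in input. Tm4sf1, a tetraspan protein of endothelium and tumour cells, had 0.185, 0.488, 1.997 and 0.468 FPKM in HA IP and 2.86, 2.40, 2.53 and 1.99 FPKM in input. Clcf1 had 0.0269, 0.0830, 0.737 and 0.254 FPKM in HA IP, from 1, 3, 27 and 7 fragments, and 0.448, 0.728, 0.498 and 0.526 FPKM in input. On the deposited scale, the HA IP value of animal 581 alone reached the input values for Emp1 and Clcf1, and reached the lowest input for Tm4sf1. After TMM scaling, Tm4sf1 in that animal stood above its own input (log2 ratio 0.46). Without that library Emp1 stood at -0.82 (adjusted p = 0.00132), Tm4sf1 at -1.73 (adjusted p = 0.000207) and Clcf1 at -1.13 (adjusted p = 0.0127). With it they stood at -0.34, -1.17 and -0.57 and did not pass (adjusted p = 0.454, 0.0523 and 0.338), though Tm4sf1 passed with the animal as a block (adjusted p = 0.0337).

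Without the HA IP library of animal 581 the same 10 members rose and 9 fell, where 41.5% of all tested genes rose and 41.1% fell. The 6 that were added are S1pr3, Timp1, Hspb1, Clcf1, Emp1 and Tm4sf1, and in all 6 animal 581 was, after TMM scaling, the only one with HA IP above input. Leaving out both libraries of that animal gave the same 9 that fell and added Sphk1 to those that rose (1.21, adjusted p = 0.0446). Without animal 595 Sphk1 stood at 0.23 (adjusted p = 0.586).

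**Figure D3:**
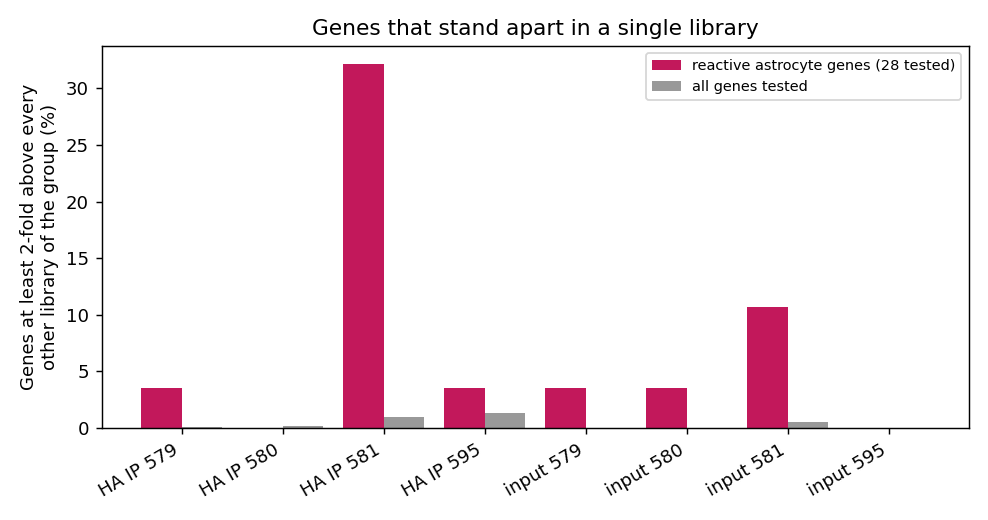
Share of genes (percent) at least 2-fold above every other library of their group, for the tested reactive genes and for all tested genes, in each of the 8 libraries. The HA IP library of animal 581 holds 32.1% of the reactive genes and 0.948% of all genes, and its input 10.7% and 0.577%.

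The input of animal 581 showed part of the same order. Timp1, Osmr and Ptx3 were at least 2-fold above every other input, 3 of 28 members or 10.7%, against 0.577% of all tested genes. The counts in the inputs of animals 579, 580 and 595 were 1, 1 and 0 members, against 0.0384%, 0.0449% and 0.032% of all genes. The member counted in the input of animal 579 was Lcn2 and in that of animal 580 Cxcl10. Of the 28 members, 13 (46.4%) were highest in the input of animal 581, against 28.1% of all genes. Relative to the mean of the other inputs on the log2 scale, Timp1 was 1.22 higher, Osmr 1.17 and Ptx3 1.42, while S1pr3 was 0.19, Tm4sf1 0.07, Hspb1 -0.09 and Clcf1 -0.14. In HA IP the same differences were 4.00 for Timp1, 2.59 for Osmr, 3.52 for Ptx3, 4.27 for S1pr3, 2.23 for Tm4sf1, 2.43 for Hspb1 and 2.20 for Clcf1. An input holds the RNA of all cells, including the astrocytes that gave the HA IP RNA, so the fractions of an animal are not separate animals.

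**Figure D4:**
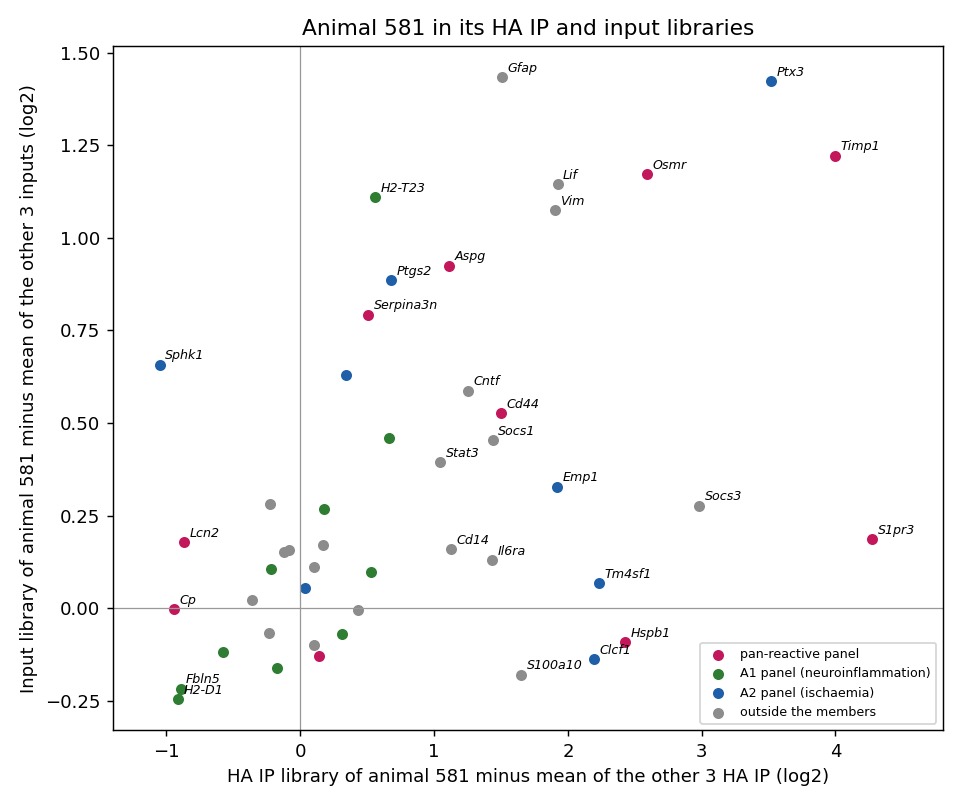
Difference of animal 581 from the mean of the other 3 animals in HA IP (horizontal axis) and in input (vertical axis), in log2 units of TMM-scaled FPKM + 0.1, for the tested reactive genes, coloured by panel, and for other panel and interleukin-6 family signalling genes in grey. S1pr3, Timp1 and Ptx3 lie farthest right, at 4.27, 4.00 and 3.52, with 0.19, 1.22 and 1.42 in input.

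The libraries of animal 581 were set beside the markers of other cell types. In its HA IP library the summed microglia and macrophage markers were 28.2 FPKM and the summed mural markers 17.4 FPKM, the lowest of the 4 HA IP libraries in both lists. The endothelial markers summed to 4.60 FPKM within a range of 4.11 to 5.50, and the neuronal markers to 125.5 FPKM, the highest of the 4. The median log2 difference from the other HA IP libraries was -0.16 for microglia, 0.06 for endothelium, -0.12 for mural cells, -0.37 for fibroblasts and 0.09 for neurons. Of all marker genes, Gfap alone was at least 2-fold above every other HA IP library. Its total of 44923596 fragments was within the range of the others.

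Of the 6 tested genes of the published panels outside the 31, Gfap, Vim and Cd14 were at least 2-fold above every other HA IP library in animal 581, and Psmb8, S100a10 and Stat3 were not. Gfap and Vim, intermediate filament genes raised in nearly all reactive astrocytes, rose in HA IP with log2 fold changes of 4.78 (SE 0.43, adjusted p = 2.57e-06) and 3.90 (SE 0.45, adjusted p = 1.70e-05). Gfap had 449.5, 309.6, 1076 and 357.4 FPKM in HA IP and 26.8, 21.3, 66.1 and 24.9 FPKM in input. Vim had 71.6, 71.0, 316.7 and 109.9 FPKM in HA IP and 11.7, 11.2, 24.2 and 11.2 FPKM in input. Both were highest in both fractions of animal 581. Of the 6, 4 rose, Cd14 fell (-1.83, adjusted p = 7.98e-05) and S100a10 did not pass (-0.67, adjusted p = 0.148). Cd14, the co-receptor for lipopolysaccharide, had 5 to 23 fragments in each HA IP library. Ugt1a1 was at 0 in all 8 libraries.

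Signalling genes of the interleukin-6 family numbered 14 tested, of which 9 rose and 2 fell, where 42.1% of all tested genes rose and 41.2% fell. These shares over all genes are also the background for the lists that follow. Il6st, which encodes gp130, rose by 1.67 (SE 0.07, adjusted p = 1.09e-08) and Stat3 by 2.32 (SE 0.23, adjusted p = 6.12e-06). In the HA IP library of animal 581, Il6ra, Lif, Cntf, Socs3 and Socs1 were at least 2-fold above every other HA IP library, where 0.948% of all tested genes were. Socs3, a feedback inhibitor that STAT3 induces, had 0.298, 0.472, 3.28 and 0.271 FPKM in HA IP and 1.44, 1.45, 1.69 and 1.21 FPKM in input. Lif, a cytokine of this family, had 0.324, 0.328, 1.39 and 0.259 FPKM in HA IP and 0.111, 0.0697, 0.331 and 0.0506 FPKM in input. Il6 was at 0 in all HA IP libraries.

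Lists of other pathways named with reactivity were counted in the same way, and the lists were not tested against each other. Among 18 tested NF-kappa-B genes 9 rose and 5 fell, and Relb and the receptor gene Tnfrsf1a were at least 2-fold above in the HA IP library of animal 581. Tnfrsf1a had 20.8, 20.05, 52.97 and 20.7 FPKM in HA IP and 3.47 to 7.43 FPKM in input. Among 19 tested interferon genes 15 rose and 1 fell, Ifngr2, and among 14 tested MHC class I presentation genes 10 rose and none fell. None of the genes of either list was at least 2-fold above in that library. Ifit3, an interferon-induced antiviral gene, was highest in animal 580, with 10.004, 30.03, 8.99 and 16.2 FPKM in HA IP. The complement list had 14 tested genes, of which 4 rose and 8 fell, and C4b rose by 4.18 (SE 0.14, adjusted p = 2.49e-09). C3, a common marker of neurotoxic astrocytes, had 0.0525 to 0.142 FPKM in HA IP and did not pass (0.45, adjusted p = 0.0528). Microglial inducers of that state, Il1a and C1qa, fell by 1.44 and 2.91 on the log2 scale (adjusted p = 1.09e-05 and 3.37e-09).

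The HA IP library of animal 595 was the highest of the 4 for 6 of the 28 members (21.4%), a smaller share than the 27.3% of all tested genes. Fkbp5, a co-chaperone of the glucocorticoid receptor that glucocorticoids induce, had 3.69, 2.93, 6.91 and 19.2 FPKM in HA IP and 10.98, 10.1, 15.4 and 18.4 FPKM in input. Animal 595 was the highest in both fractions, by 1.46 log2 units over the next library in HA IP, and it was the only animal with HA IP above input. HA IP over input gave a log2 fold change of -0.26 (SE 0.49, adjusted p = 0.629) and -0.77 (adjusted p = 0.0365) without that HA IP library. The other 5 were Cp, Serping1, Fbln5, Srgn and Sphk1, none by 2-fold. Cp had 0.179, 0.427, 0.190 and 0.902 FPKM in HA IP and 0.953 to 1.25 FPKM in input, with a log2 fold change of -0.66 (adjusted p = 0.129) and -1.04 (adjusted p = 0.00386) without it. Fbln5 had 0.283, 0.702, 0.272 and 0.834 FPKM in HA IP. The summed fibroblast and meningeal markers were 28.7, 44.7, 34.7 and 65.5 FPKM in the HA IP libraries and the summed mural markers 20.3, 39.3, 17.4 and 51.0 FPKM, both highest in animal 595. Their part in these values was not tested. Ddx3y, a gene of the Y chromosome, stood at 8.53 to 11.2 FPKM in the HA IP libraries of the other 3 animals and at 0.0128 FPKM in that of animal 595, so sex and animal number cannot be told apart in these values.

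Lcn2 was high in animal 579. It had 0.569, 0.106, 0.0788 and 0.105 FPKM in HA IP, from 22, 4, 3 and 3 fragments, and 2.39, 0.967, 0.831 and 0.0881 FPKM in input, from 72, 29, 26 and 4 fragments. Animal 579 was the highest in both fractions. The input of animal 595 lay within the range of the HA IP libraries on the deposited scale and below it after TMM scaling. The log2 fold change of Lcn2 was -1.04 (SE 0.70, adjusted p = 0.191). With the animal as a block it passed (adjusted p = 0.0309).

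The members that were not tested, and B3gnt5, had low values in most libraries. Steap4, a metal reductase, had 2, 2, 0 and 0 fragments in HA IP and 11, 6, 21 and 11 in input. Slc10a6, a transporter of sulfated steroids, had 1 fragment in the HA IP library of animal 581 and none in the others, and 1, 0, 2 and 9 in input. A level of this size was not distinguishable from 0 in HA IP at this depth, counting 3 fragments as the floor of a library. B3gnt5, a glycosyltransferase of glycolipids, had 0.0109 to 0.0304 FPKM in HA IP and 0.0502 to 0.0848 FPKM in input and did not pass (-0.23, adjusted p = 0.120). Its deposited values did not overlap, but all lay below the pseudocount of 0.1 FPKM. With a pseudocount of 0.01 FPKM the log2 fold change was -0.71 (adjusted p = 0.0947 in limma). Tgm1, a protein-crosslinking transglutaminase, had 0, 4, 120 and 8 fragments in HA IP and 6, 10, 21 and 12 in input. It was left untested because 3 libraries reached the filter where 4 are needed, and animal 581 was the highest in both fractions.

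Promoters of a few members that hold a match are printed to show where the letters of elements bound by STAT and interferon factors lie. Emp1 and Tgm1 were high in the HA IP library of animal 581, and Gbp2 and Cxcl10 are interferon-induced. Each is the 250 bases before an annotated start in RefSeq (GRCm38.p6), read 5′ to 3′ on the gene's strand, with matches in capitals. The motifs were TTCNNNGAA for STAT and the interferon-stimulated response element (GAAA, any 2 bases, GAAA), on either strand. The starts of Emp1 and Tgm1 used here lie inside the span of the gene, downstream of another start.
Emp1, chr6:135362681-135362930, plus strand, 2 STAT matches: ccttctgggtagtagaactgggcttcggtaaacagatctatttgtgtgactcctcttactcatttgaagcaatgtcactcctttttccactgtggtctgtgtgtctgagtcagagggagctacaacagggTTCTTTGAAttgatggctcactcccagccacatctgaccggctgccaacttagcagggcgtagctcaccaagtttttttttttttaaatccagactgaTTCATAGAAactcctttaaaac
Tgm1, chr14:55713493-55713742, minus strand, 1 interferon and 2 STAT matches: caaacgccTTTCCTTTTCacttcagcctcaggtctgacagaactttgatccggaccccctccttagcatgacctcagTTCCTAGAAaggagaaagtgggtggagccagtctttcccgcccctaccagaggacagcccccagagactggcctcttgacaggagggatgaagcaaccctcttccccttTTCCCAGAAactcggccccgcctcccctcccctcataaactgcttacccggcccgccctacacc
Gbp2, chr3:142620413-142620662, plus strand, 1 interferon match: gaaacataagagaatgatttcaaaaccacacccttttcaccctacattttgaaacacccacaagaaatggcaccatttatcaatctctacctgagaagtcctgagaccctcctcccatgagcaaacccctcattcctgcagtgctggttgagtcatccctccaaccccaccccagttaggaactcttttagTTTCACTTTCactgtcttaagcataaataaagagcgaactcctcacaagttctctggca
Cxcl10, chr5:92348890-92349139, minus strand, 1 interferon match: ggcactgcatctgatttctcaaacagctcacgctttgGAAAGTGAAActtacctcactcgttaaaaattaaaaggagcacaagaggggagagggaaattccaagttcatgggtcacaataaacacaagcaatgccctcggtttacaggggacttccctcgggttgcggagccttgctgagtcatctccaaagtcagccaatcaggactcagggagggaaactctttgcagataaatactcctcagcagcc

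In Emp1 the matches lie 120 to 112 and 22 to 14 bases before the start. In Tgm1 the interferon match lies 242 to 233 bases before the start and the STAT matches at 173 to 165 and 64 to 56. The interferon match lies 59 to 50 bases before the start of Gbp2 and 213 to 204 before that of Cxcl10. Promoter windows were used for 27 of the 31 members, all but Clcf1, Serping1, Cd109 and Iigp1. The STAT motif was found in 4 of them (Steap4, Tgm1, Sphk1 and Emp1), against 8.13% of 27025 genes, and the interferon motif in 6 (Cxcl10, H2-T23, Gbp2, Srgn, Tgm1 and Tm4sf1), against 3.46%. The exact letters GGGA, any base, TTTCC, a narrow form of the NF-kappa-B motif, were found in 0 of the 27, against 0.414% of genes. Looser forms were not searched. The printed Cxcl10 promoter holds gggaaattcc and gggacttccc, which are close to these letters and were not counted. The 0 therefore does not show that the promoters lack NF-kappa-B elements. Among the members high in the HA IP library of animal 581, Clcf1 was not searched, Emp1 held the STAT motif and Tm4sf1 the interferon motif. S1pr3, Timp1, Hspb1, Cd44, Osmr and Ptx3 held none of the motifs searched. A match is a description of letters and not a bound site.

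The spread of the members among the HA IP libraries was wider than that of most genes. The SD of log2 values over the 4 HA IP libraries had a median of 0.70 over the 28 members, from 0.13 to 2.14, against 0.20 over all tested genes, and 25 of the 28 members exceeded the latter. Without animal 581 the medians were 0.40 and 0.17, and 21 members exceeded the latter. In input the medians were 0.30 and 0.14. The members had fewer fragments than most genes, with a median of 137 a library in HA IP against 570.5 over all tested genes, and the part of depth in the wider spread was not tested.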

How the data were processed

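Polyadenylated RNA from 4 input and 4 HA IP libraries of mouse cortex was sequenced in pairs of reads from a stranded kit, per the labels' protocols. Tools named in the submitters' processing notes are STAR, HTSeq and bcl2fastq 2.17, with build mm10. The annotation, the strand setting of the counting and the other versions were not given in the sources used here. The deposited tables hold 1 value per gene symbol without naming the unit. They are taken to be FPKM that the authors computed. Library totals were fitted on 600 low genes, and for each gene the smallest length was fitted that turns its values into whole fragments, so that closeness to whole numbers is built in and does not bear on the unit. The fragments summed over genes, which the fit did not use, came to 99.91% to 99.96% of the totals. Some lengths exceed the gene's span, those of Amigo2, Sphk1 and B3gnt5 among them, so levels of different genes are not compared. Fragment numbers in the text, and in the filter, are these estimates.

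FPKM were divided by TMM factors (trims of 0.3 and 0.05, no weights, own code). Limma 3.58.1 (R 4.3.3) was fitted on log2(FPKM + 0.1) with an intensity trend and no covariate, two-sided, with Benjamini-Hochberg adjustment over 15606 genes and a threshold of 0.05. The pseudocount makes fold changes of low genes smaller. Genes needed 0.246 CPM in at least 4 libraries, which is 10 fragments in the median library, plus 15 fragments over all libraries. Of the 28 tested members 22 met the CPM limit in all 8 libraries, and Lcn2, Iigp1, Clcf1 and B3gnt5 met it in fewer than 4 HA IP libraries. Lcn2, Cxcl10 and Ptx3 met it in fewer than 4 input libraries, Ptx3 in 2. No count test was run on the recovered fragments. Libraries of the same animal deviated together (r = 0.22 to 0.40, other pairs at most 0.11), so the numbers pair them. The members and gene lists were chosen with earlier results of these data known. All 31 members were eligible to be named, with list genes where they passed or their level is given.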

Additional observations from a re-analysis of the deposited data

Results flagged for a closer look

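A gap between the highest or the lowest library and the rest of its group was tested on deposited FPKM, without logs. It was tested in the 59 groups of 4 libraries of a member in which some library had at least 10 fragments. The gap passed Dixon's limit for 4 values, taken as the gap over the group's range, in 10 of them. For normally distributed values about 1 in 20 groups, or 2.95, would pass. FPKM need not be normally distributed, so this rate may not hold for them. In 8 of the 10 the library was the HA IP library of animal 581. These were S1pr3 at 7.42 FPKM, Timp1 at 3.02, Hspb1 at 5.94, Osmr at 6.79, Ptx3 at 7.73, Tm4sf1 at 1.997, Emp1 at 0.440 and Tgm1 at 0.319 FPKM, each the highest of 4. Timp1 in the input of animal 581, at 1.38 FPKM, and Lcn2 in the HA IP library of animal 579, at 0.569 FPKM, were the other 2. The groups are not independent, since the same library enters each.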

How the results depend on the processing

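The replicate block on animal number left 10 members higher and gave 5 lower, where the unblocked fit gave 10 and 3, and changed no other call among the members. Without TMM scaling 3643 of all tested genes were higher (6565 with it) and 8 members lower, and Serping1 (-0.47), Fbln5 (-0.34) and Cd109 (-0.24) turned negative. With a pseudocount of 1 FPKM Timp1 turned to 0.13. Pseudocounts, the trend and leaving out the filter kept 10 members higher and 3 or 4 lower, and a filter of 1 CPM left 21 members, 8 higher and 4 lower. Leaving out an animal or a library gave 10 to 11 members higher and 2 to 9 lower, with 9 only without the HA IP library, or both libraries, of animal 581. Over these, log2 fold changes ran from -1.24 to 0.11 for Timp1, -0.033 to 0.60 for Serping1 and -0.77 to 0.084 for Fkbp5, none of which passed with all libraries. Lcn2 and Cp fell without animal 595 (-1.55 and -1.06, adjusted p = 0.0433 and 0.0102 in limma), and Lcn2 without its input (-1.68, adjusted p = 0.0171). Sphk1 ranged from 0.23 without animal 595 to 1.21 without animal 581, and rose without the latter and without the HA IP library of animal 579 (1.09, adjusted p = 0.0436), and Cd109 without the input of animal 581 (0.43, adjusted p = 0.0323). The cause was not tested. Depth limits Lcn2, Cxcl10, Clcf1, Ptx3 and B3gnt5, with few fragments in some libraries. Labels give 1 library a fraction and animal, so p-values of the fit without a block measure the spread between these 4 animals within each fraction. They do not use the pairing of the libraries, which the fit with the animal as a block does.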

Other observations

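Genes outside the 31 that stood out in the HA IP library of animal 581 were looked at after their values were seen. In all, 148 of 15606 tested genes were at least 2-fold above every other HA IP library there, 9 of them reactive genes. Of the 148, 117 (79.1%) were also highest in the input of that animal, against 28.1% of all tested genes, and 24 were at least 2-fold above every other input. The widest gaps were those of Tnfrsf12a, the receptor for the cytokine TWEAK, and Tagln2, an actin-binding protein. Tnfrsf12a had 0.699, 0.608, 20.6 and 0.732 FPKM in HA IP and 3.15, 3.93, 5.82 and 2.32 FPKM in input, in the order of animals 579, 580, 581 and 595. Tagln2 had 0.620, 1.03, 29.1 and 0.773 FPKM in HA IP and 4.57, 3.83, 7.74 and 3.37 FPKM in input. Nptx2, a neuronal pentraxin that activity induces, had 1.90, 1.69, 20.9 and 1.66 FPKM in HA IP and 34.7, 39.6, 149.8 and 33.7 FPKM in input. Trim47, a ubiquitin ligase, had 1.72, 1.06, 24.4 and 1.87 FPKM in HA IP, and Adamts1, a secreted metalloprotease, had 4.41, 3.66, 21.1 and 4.29 FPKM.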
